A study of Homo sapiens with 6 samples.

Results

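The genes described here are the 38 listed zinc-finger genes of a cluster named for chromosome band 19q13.41. The cluster spans chr19:51804816-53580269 (GRCh38), which also holds 63 other annotated genes. Of the 38 zinc-finger genes, 16 lie on the plus and 22 on the minus strand. They were measured by RNA-seq in 6 cultures of 293T cells, a human embryonic kidney line that is easily transfected. In 3 cultures the cells had received a synthetic duplex of the microRNA miR-941 at 10 nM (mimic), and in the other 3 a scrambled oligonucleotide (mock), whose concentration the labels do not give, so that sequence and dose cannot be told apart. All 6 cultures were transfected with the same lipid reagent, 24 h after plating, and the labels give no time from transfection to RNA extraction. The genes were chosen by name and position out of 26613 genes with at least 1 count, with earlier results of these data known. The 34 with 30 or more counts summed over the 6 libraries entered the tests. The summed count is blind to group. The lowest member inside that limit, ZNF347, had 87 counts and the highest outside it, ZNF888, had 20.

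Most of these genes encode proteins with an array of C2H2 zinc fingers, each finger a short loop around a zinc ion that reads a few bases of DNA, and a KRAB domain at the amino end. The KRAB domain recruits TRIM28, which brings the histone methyltransferase SETDB1 and heterochromatin proteins to the bound site, and many such proteins silence transposable elements. The family has grown by repeated tandem duplication, so that neighbours on chromosome 19 are often close copies of each other. In the annotated coding sequences a pattern of conserved KRAB residues matched in 35 of the 38 members, all but ZNF432, ZNF880 and ZNF83, where the lack of a match does not show that the domain is absent. The number of C2H2 fingers ran from 7 to 26 with a median of 13, and ZNF845 had the most. Protein identity to the closest other member, as a share of the shorter protein, ran from 52.4% for ZNF577 to 91.2% for the pair ZNF28 and ZNF468.

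The mature miR-941 strand is shown because its seed, bases 2 to 8, is what the mimic would pair with in a target mRNA. It is given 5′ to 3′ from RefSeq (GRCh38.p14), where 5 loci on the plus strand of chromosome 20 carry it, the first at chr20:63919495-63919517, with the seed in capitals.
miR-941: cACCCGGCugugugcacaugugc
The site that pairs with the whole seed is GCCGGGT. It was found in no member, neither in the longest annotated 3′ UTR (37 members with one) nor in the longest coding sequence (38 members), where 5.34% of 13704 and 6.28% of 13733 tested genes hold it. The shorter site CCGGGTA, which pairs with bases 2 to 7 followed by an A, occurred at 1 place in the cluster. That place, chr19:52880200-52880206 on the minus strand, lies in a terminal exon that the annotation gives to both ZNF468 and ZNF320, 390 bases into a 3′ UTR of 4424 or 4416 bases. It lies upstream of the RefSeq start of ZNF468 printed below, chr19:52857570-52857639 on the minus strand. A ZNF468 transcript from that start would not hold the site. The site is printed in capitals with its neighbouring bases.
ZNF468 and ZNF320: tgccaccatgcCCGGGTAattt
Among tested genes 1.76% have this shorter site in the 3′ UTR. ZNF468 was higher in mimic cells and ZNF320 was not called, as described below.

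The starts of many members are close copies too. RefSeq promoter sequences (GRCh38.p14, 250 bases before to 50 after the start) were available for 31 members, and the other 7 were ZNF649, ZNF480, ZNF610, ZNF600, ZNF28, ZNF888 and ZNF665. The core CCGGAAG, which ETS family transcription factors recognise, was present on either strand (reverse complement CTTCCGG) in 19 of the 31, or 61.3%, against 146 of 374 other genes with a ZNF symbol (39%) and 10.7% of all 27305 promoters. In 17 members, or 54.8%, it began on the sense strand within the first 20 bases after the start, against 5 of those 374 other ZNF genes (1.34%) and 0.703% of all promoters. The window was set after the sequences had been seen. The stretch from 20 bases before to 50 bases after the start is printed for 12 members, with the core in capitals, so that the shared letters around it can be read.
ZNF616, chr19:52139889-52139958, minus strand: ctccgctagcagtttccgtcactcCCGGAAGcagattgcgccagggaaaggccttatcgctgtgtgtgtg
ZNF841, chr19:52095716-52095785, minus strand: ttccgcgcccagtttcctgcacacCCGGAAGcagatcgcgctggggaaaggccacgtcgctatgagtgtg
ZNF766, chr19:52269567-52269636, plus strand: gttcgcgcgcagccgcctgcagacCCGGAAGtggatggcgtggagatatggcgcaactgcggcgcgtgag
ZNF528, chr19:52397829-52397898, plus strand: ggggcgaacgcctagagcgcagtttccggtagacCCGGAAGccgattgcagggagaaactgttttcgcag
ZNF160, chr19:53103373-53103442, minus strand: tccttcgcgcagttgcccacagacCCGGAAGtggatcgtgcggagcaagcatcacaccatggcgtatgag
ZNF845, chr19:53333729-53333798, plus strand: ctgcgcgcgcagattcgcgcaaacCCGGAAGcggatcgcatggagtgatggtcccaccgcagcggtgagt
ZNF765, chr19:53395129-53395198, plus strand: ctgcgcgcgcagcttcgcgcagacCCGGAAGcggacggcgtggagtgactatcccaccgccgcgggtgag
ZNF611, chr19:52734995-52735064, minus strand: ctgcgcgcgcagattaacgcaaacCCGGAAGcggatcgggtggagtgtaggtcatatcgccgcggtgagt
ZNF468, chr19:52857570-52857639, minus strand: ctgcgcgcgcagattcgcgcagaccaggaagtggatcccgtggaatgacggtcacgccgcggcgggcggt
ZNF761, chr19:53431964-53432033, plus strand: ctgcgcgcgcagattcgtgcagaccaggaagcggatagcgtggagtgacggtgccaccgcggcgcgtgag
ZNF836, chr19:52171572-52171641, minus strand: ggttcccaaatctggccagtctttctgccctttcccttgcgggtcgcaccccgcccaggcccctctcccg
ZNF331, chr19:53520994-53521063, plus strand: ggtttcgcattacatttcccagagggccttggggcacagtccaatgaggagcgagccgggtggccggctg
The first 8 hold the core near the start, and the last 4 do not. In its place ZNF468 and ZNF761 have caggaag, and only the exact letters CCGGAAG were counted. ZNF616, which changed most, and ZNF841, its neighbour, which was not called, both carry it at the same distance, 5 bases from the start. Of the other motifs, a GC box (GGGCGG or CCGCCC) was present in 26 of the 31 member promoters (83.9%, against 44.6% of all) and a TATA box (TATAAA or TTTATA) in none (against 12% of all). AAGATGGC or GCCATCTT, a motif of YY1, was in 4 of the 31 (12.9%, against 3.03%). A match here is a description of the letters, and binding was not measured.

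**Figure D1:**
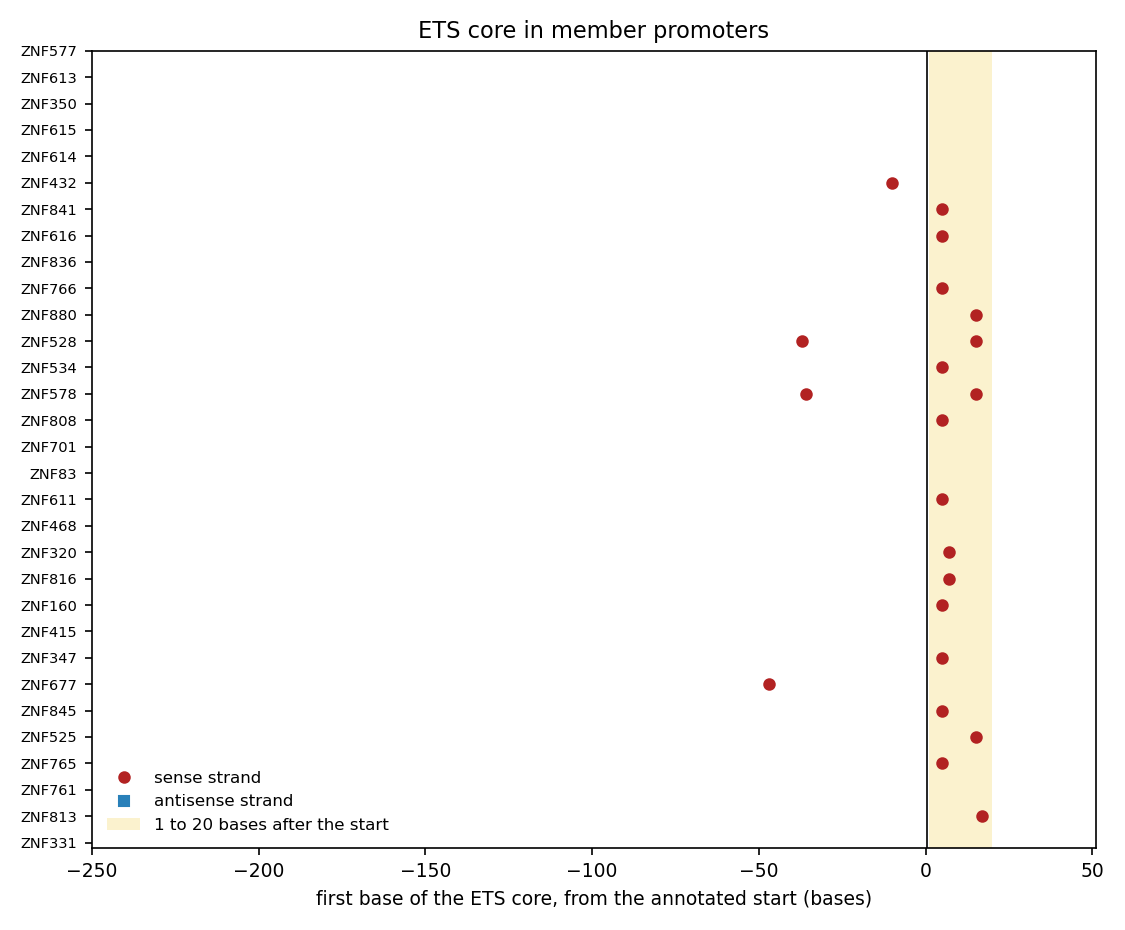
Position of the ETS core in the 31 member promoters, with members in chromosomal order down the page and the distance of the core's first base from the annotated start, in bases, along the x axis. Each point is a match, all of them are on the sense strand, and 17 members have 1 in the shaded first 20 bases.

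The libraries held 6079420 to 7651046 counts, so that 3 counts correspond to 0.392 to 0.493 CPM, the unit used below for counts scaled to a common library total. Libraries of a group differed by 1.27 to 2.38 times sampling noise, against 3.58 to 4.80 times for pairs across groups. Of 8 genes listed as markers of the 293T lineage 7 were found in the tables, among them VIM, LIN28B and HOXA9, and NEFL was not listed under its GENCODE 29 gene ID. Since the counts were made on another build, a gene not listed may stand there under another ID, which holds for all genes given as not listed. NEFM was higher in mimic cells (81.7 ± 2.86 CPM, against 55.9 ± 2.15 CPM in mock cells, SD, n = 3 each), as was KRT18 (221 ± 7.41 CPM against 196 ± 8.14 CPM). Of 6 markers of other cell types, PTPRC, PECAM1 and DCN were not listed, ALB had 9 counts in all, CD14 averaged 1.91 CPM in mimic and 2.24 CPM in mock cells, and the fibroblast collagen gene COL1A1 averaged 37.99 and 36.31 CPM.

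After the mimic, 13 of the 34 tested members were higher and none was lower. The share of 38.2% stands beside 6.06% of all 16885 tested genes that were higher and 5.77% that were lower. The median log2 fold change over the 34 members was 0.25, against 0.00 over all tested genes, and 31 of the 34 values were positive. Without ZNF616, the member already known for its large change when the cluster was chosen, 12 of 33 were higher and the median was 0.25. All members were chosen with earlier results of these data known, and leaving out ZNF616 does not undo that. The shares are therefore a description. A gene was called at an adjusted p under 0.05 in edgeR's quasi-likelihood test, which is two-sided, with the Benjamini-Hochberg method applied to the whole set of 16885. At an unadjusted p under 0.05 there were 15 of 34 members, all with a positive log2 fold change, beside 12.1% of all tested genes with a positive and 12.1% with a negative one. The summed level of the 34 members was 794, 770 and 783 CPM in the mimic libraries and 663, 684 and 648 CPM in the mock libraries. In bulk RNA, more cells that express a gene and more of its RNA per cell cannot be told apart. Leaving out either mock replicate 1 or mock replicate 3 left 8 members called, and DESeq2's Wald test called 7, with none lower in each case.

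**Figure D2:**
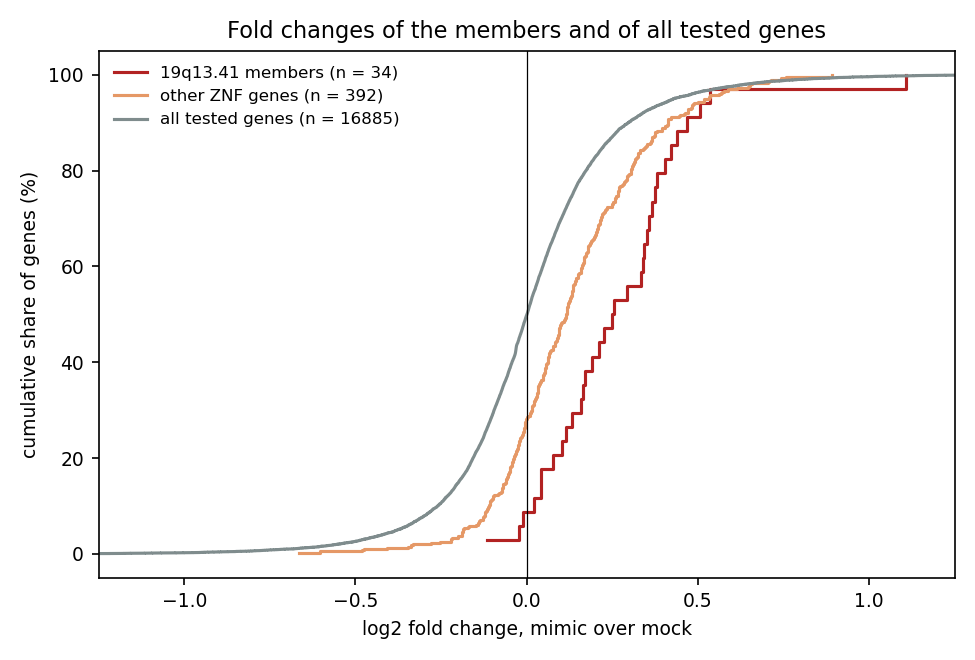
Cumulative share of genes (y axis, %) by log2 fold change of mimic over mock (x axis) for the 34 tested members, 392 other genes with a ZNF symbol and all 16885 tested genes. The curve of the members lies to the right, with a median of 0.25, that of the other ZNF genes between (0.12) and that of all genes crosses 50% near 0.

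Other genes with a ZNF symbol were also more often higher than lower. Of 392 tested, 66 were higher (16.8%) and 2 lower (0.51%), with a median log2 fold change of 0.12. No test of the cluster against these genes was made, so the difference in counts is a description.

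ZNF616, a KRAB zinc-finger gene with 21 fingers, had the largest change of the cluster. It reached 20, 18.1 and 22.2 CPM in the mimic libraries, against 8.26, 9.45 and 10.3 CPM in the mock libraries. Every mimic library was well above every mock library, a 2.15-fold difference (log2 fold change 1.11 ± 0.13 SE, adjusted p = 3.96e-10 by edgeR). It was the only member past 2-fold, the next being ZNF765 at 0.54. The gene lies on the minus strand at chr19:52113091-52139922, and none of its 100-base stretches occurs in another annotated gene.

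The genes on either side of ZNF616 differed from each other. ZNF836, the next gene towards the telomere, with 24 fingers, had 11.2, 9.35 and 10.4 CPM in mimic and 7.59, 7.51 and 6.56 CPM in mock libraries. The groups did not overlap, and the log2 fold change was 0.51 ± 0.16 (adjusted p = 0.0249). ZNF766, the member after it, had 21.2, 20.8 and 20.6 CPM in mimic and 17.2, 16.5 and 15.6 CPM in mock libraries. Its groups did not overlap either, with a log2 fold change of 0.34 ± 0.11 (adjusted p = 0.0330). Both calls were lost when certain libraries were left out: ZNF766 was not called without any 1 of mimic replicates 1 and 2 and the mock replicates (adjusted p 0.0582 to 0.118), nor ZNF836 without any 1 of mimic replicate 1 and the mock replicates (0.0515 to 0.142). ZNF836 also shares 10.9% of its 100-base stretches with another annotated gene, which was not listed in the counts. ZNF841, the next gene towards the centromere and the closest copy of ZNF616 at 71.7% identity, had 34.0, 30.8 and 37.3 CPM in mimic and 30.2, 32.1 and 30.7 CPM in mock libraries. Here the groups overlapped, and the log2 fold change of 0.13 ± 0.09 was not called (adjusted p = 0.393). ZNF432, which lies beyond ZNF841, had 15.2, 13.7 and 11.6 CPM in mimic and 15.6, 14.04 and 14.6 CPM in mock libraries. Its groups overlapped and its log2 fold change of −0.12 ± 0.13 was not called (adjusted p = 0.646), with a 95% interval from −0.37 to 0.14.

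ZNF616, ZNF836, ZNF766 and ZNF480 stand next to each other among the members, and all 4 were higher. By DESeq2's Wald test only ZNF616 of these was called, with the others at an adjusted p of 0.0618 to 0.156. ZNF480 had 35.5, 33.2 and 35.5 CPM in mimic and 25.9, 30.7 and 25.9 CPM in mock libraries. The lowest mimic library was above the highest mock library, with a log2 fold change of 0.33 ± 0.09 (adjusted p = 0.00726), a value that was 0.0710 when mock replicate 1 was left out and 0.0577 when mock replicate 3 was. The next member, ZNF610, named after its values were seen, was not called, at 0.38 ± 0.29 with 105 summed counts (adjusted p = 0.462). Its change was larger than that of ZNF480, with a larger SE. Runs of neighbours were read from the calls and were not tested. This run of 4 is interrupted by a gene of another kind, named after its values were seen. PPP2R1A, the scaffold subunit of protein phosphatase 2A, lies between ZNF836 and ZNF766 and was lower in mimic cells, at 377, 377 and 350 CPM against 447, 423 and 418 CPM in mock cells. Its log2 fold change was −0.22 ± 0.05 (adjusted p = 2.60e-04), opposite in sign to the genes around it. Of 63 other annotated genes within the span of the cluster 8 were tested, of which PPP2R1A was the 1 called and none was higher. Over all tested genes 6.06% were higher and 5.77% lower, so that 8 genes are too few to read these counts. The median log2 fold change of the 8 was 0.14, and 5 of the values were positive.

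**Figure D3:**
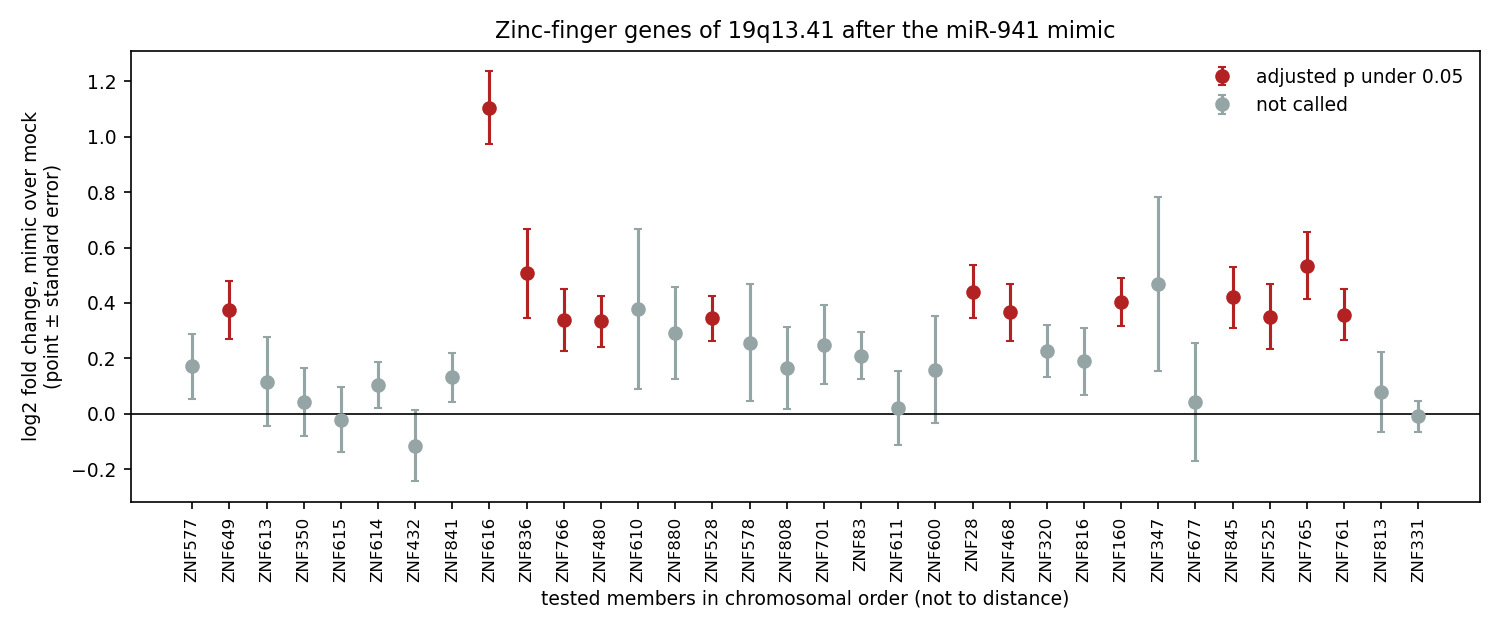
Log2 fold change of mimic over mock (y axis, point ± standard error) for the 34 tested members in chromosomal order (x axis, not to distance). Red points are the 13 members called higher by edgeR, and ZNF616 stands highest at 1.11. In 2 runs of 4 neighbours, ZNF616 to ZNF480 and ZNF845 to ZNF761, all were called by edgeR, though not all by DESeq2.

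A second run of 4 neighbours was higher near the telomeric end: ZNF845, ZNF525, ZNF765 and ZNF761. ZNF845, the longest protein of the cluster with 26 fingers, had 22.6, 24.6 and 23.6 CPM in mimic and 16.1, 19.7 and 16.9 CPM in mock libraries. The groups were apart, with a log2 fold change of 0.42 ± 0.11 (adjusted p = 0.00443, and 0.0582 without mock replicate 1). ZNF765 had 18.4, 21.4 and 17.6 CPM in mimic and 12.1, 13.3 and 14.4 CPM in mock libraries. The lowest mimic value was again above the highest mock value (0.54 ± 0.12, adjusted p = 0.00104). ZNF761, whose protein is 86.2% identical to that of ZNF765, had 36.01, 33.21 and 35.52 CPM in mimic and 29.13, 29.05 and 22.96 CPM in mock libraries. Its log2 fold change was 0.36 ± 0.09 (adjusted p = 0.00411), and without mock replicate 3, its lowest library, the adjusted p was 0.0865. ZNF525, called with the largest p of the 13 and named for its place in the run after its values were seen, had 19.6, 18 and 20.6 CPM in mimic and 14.2, 17.1 and 14.1 CPM in mock libraries. The groups were just apart, at 0.35 ± 0.12 (adjusted p = 0.0381), and the call was lost without any 1 of mimic replicates 1 and 3 and mock replicates 1 and 3 (0.0986 to 0.171). It was also lost by DESeq2's Wald test (adjusted p = 0.169) and in edgeR without the count limit (0.0541). The next gene, ZNF813, 83.5% identical to ZNF845, was not called, at 0.08 ± 0.14 (adjusted p = 0.807).

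Between these runs lie 4 more members that were higher. ZNF160, reported to repress transcription of the innate immune receptor TLR4, had 42.5, 40.2 and 37.3 CPM in mimic and 31.6, 31.3 and 27.7 CPM in mock libraries. The groups were well apart (0.40 ± 0.09, adjusted p = 3.85e-04). ZNF28 had 37.1, 33.2 and 31.8 CPM in mimic and 22.1, 29.1 and 24.3 CPM in mock libraries. The highest mock library came close to the lowest mimic library, and the log2 fold change was 0.44 ± 0.10 (adjusted p = 5.67e-04). ZNF528 had 44.2, 44.9 and 48.1 CPM in mimic and 33.6, 37.1 and 37.4 CPM in mock libraries. It was higher in every mimic library than in any mock library (0.34 ± 0.08, adjusted p = 0.00131).

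ZNF468 and ZNF320 are harder to separate, because the annotation gives them 6021 exonic bases in common, 53.0% of the exonic length of ZNF468 and 72.5% of that of ZNF320. ZNF468 had 28.3, 25.7 and 24.2 CPM in mimic and 20.7, 19.5 and 20.7 CPM in mock libraries. The groups did not overlap and the gene was called (0.37 ± 0.10, adjusted p = 0.00929). ZNF320 had 29.17, 31.67 and 38.04 CPM in mimic and 29.13, 27.38 and 27.38 CPM in mock libraries. The lowest mimic library was barely above the highest mock library, and the gene was not called (0.23 ± 0.09, adjusted p = 0.108). The labels do not say how reads in the shared exons were assigned, so both values are uncertain. Without mimic replicate 1 the calls turned round, with ZNF468 at an adjusted p of 0.105 and ZNF320 at 0.0446, and without mock replicate 2 ZNF468 was at 0.0543.

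At the centromeric end only ZNF649 was called among the first 8 members. ZNF649, a repressor of reporters driven by the serum response element and AP-1, had 29.04, 25.1 and 24.2 CPM in mimic and 18.3, 21.1 and 21.5 CPM in mock libraries. Its groups did not overlap (0.37 ± 0.10, adjusted p = 0.00902), but the adjusted p was 0.134 without mimic replicate 1 and 0.104 without mock replicate 1. Its closest copy ZNF613 was not called (0.12 ± 0.16, adjusted p = 0.733). Nor was ZNF350, also named ZBRK1, a BRCA1 partner that represses GADD45A, at 15.5 ± 1.51 CPM in mimic and 14.9 ± 1.11 CPM in mock cells (SD, n = 3). Over the other 7 members of this end the log2 fold changes ran from −0.12 to 0.17.

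**Figure D4:**
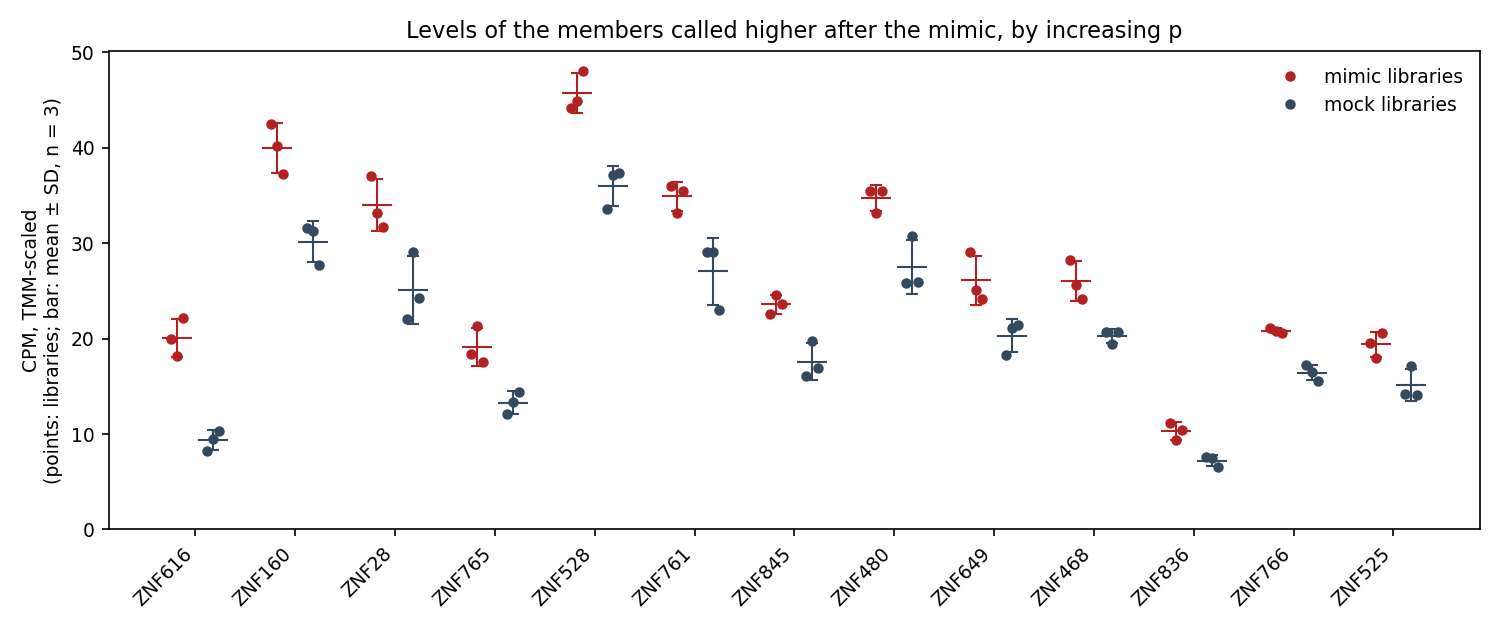
Level in CPM (y axis, from 0) of the 13 members called higher, ordered by increasing p, with mimic libraries left of mock libraries. Points are libraries and bars are mean ± SD (n = 3), and in each of the 13 the lowest mimic library is above the highest mock library.

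In 18 of the 34 tested members every mimic library was above every mock library, and in none was every mimic library below, against 13.5% and 13.6% of all tested genes. The 13 called members are among these 18, and the other 5 are ZNF320, ZNF701, ZNF816, ZNF347 and ZNF578. Among the members not called, those with the largest change at a mean of at least 5 CPM were ZNF880, ZNF701 and ZNF320. ZNF880 had 8.02, 10.5 and 8.96 CPM in mimic and 7.18, 6.81 and 8.53 CPM in mock libraries. The groups overlapped, at 0.29 ± 0.17 (adjusted p = 0.281). ZNF701 had 10.9, 12.4 and 12.1 CPM in mimic and 10.6, 9.59 and 9.51 CPM in mock libraries. Its groups were just apart, at 0.25 ± 0.14 (adjusted p = 0.292). ZNF701 shares 14.7% of its 100-base stretches with other annotated genes and has 712 exonic bases in common with ZNF808, so part of its count may belong to that neighbour.

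Of the 21 tested members that were not called, 18 had a positive and 3 a negative log2 fold change, from −0.12 to 0.47 with a median of 0.16. ZNF808, which silences MER11 elements and is needed for pancreas development, had 10.6 ± 1.35 CPM in mimic and 9.50 ± 0.42 CPM in mock cells. ZNF611, which binds SVA retrotransposons, had 13.5 ± 1.51 and 13.5 ± 1.80 CPM, and its interval ran from −0.24 to 0.28 on the log2 scale. ZNF600, 89.4% identical to ZNF611, was at 0.16 ± 0.19. Close copies were therefore found both with like calls (ZNF28 and ZNF468, ZNF845 and ZNF525, ZNF765 and ZNF761, all higher) and with unlike ones (ZNF836 and ZNF841, ZNF845 and ZNF813), and the differences between members were not tested.

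ZNF331, an imprinted gene at the telomeric edge that is silenced by methylation in gastric and colorectal cancers, was the most abundant member and was not called. It had 113, 110 and 110 CPM in mimic and 109, 117 and 109 CPM in mock libraries. The groups overlapped, with a log2 fold change of −0.01 ± 0.06 (adjusted p = 0.946) and a 95% interval from −0.12 to 0.10. Per kilobase of exonic length its level was 12.5 CPM in mimic and 12.5 CPM in mock cells. On the same scale ZNF841 came next, at 7.94 and 7.23 CPM per kilobase, followed by ZNF761 at 7.41 and 5.74 CPM per kilobase. The 34 tested members covered a range down to 0.26 in mimic and 0.19 in mock cells for ZNF347.

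The 4 members left out of the tests were barely detected. ZNF888 had 3, 5 and 3 counts in mimic and 1, 7 and 1 in mock libraries. ZNF534 had 0, 1 and 3 against 1, 2 and 0 counts, and ZNF665 had 1, 1 and 0 against 1, 2 and 1 counts. ZNF415, reported to repress p53 and AP-1 reporters, had 0 counts in every mimic library and 2, 1 and 0 in the mock libraries. At this depth no difference in these genes was detectable.

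**Figure D5:**
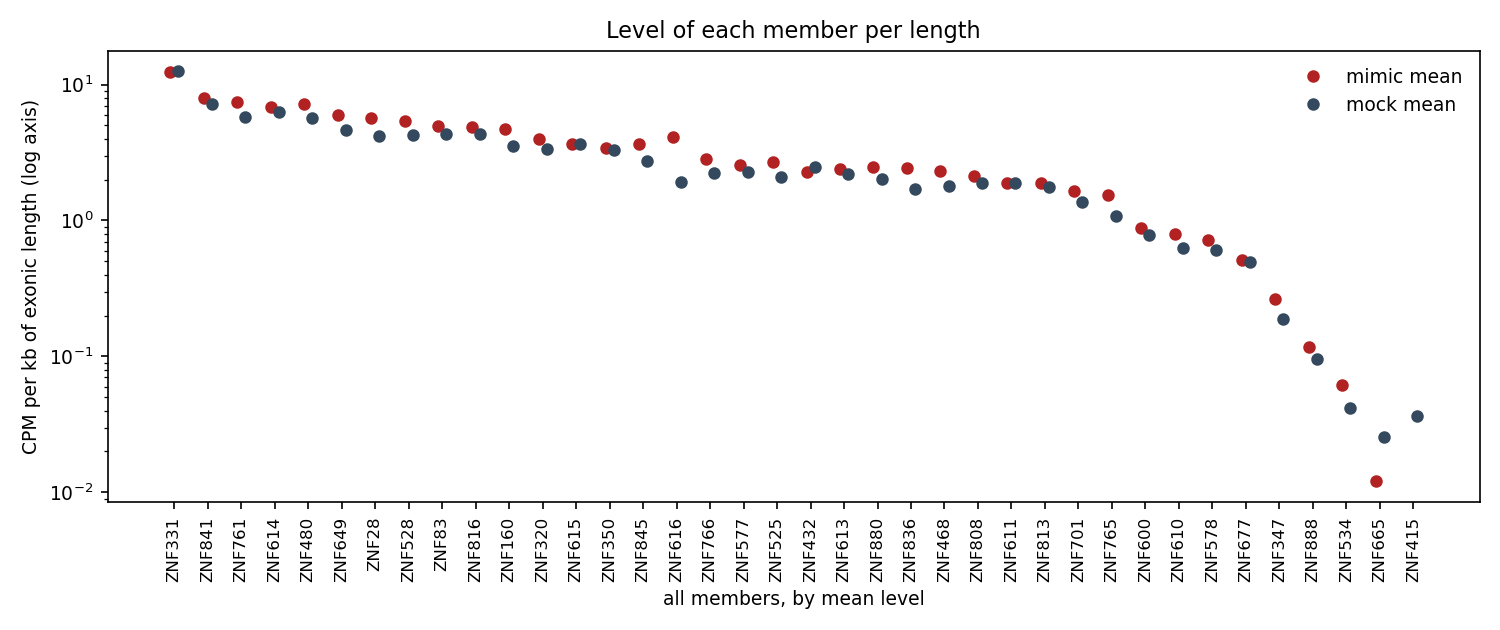
Mean level of all 38 members per kilobase of exonic length (y axis, CPM per kb, log axis) in mimic and mock cells, ordered by mean level (x axis). ZNF331 is highest at 12.5 in both groups, and the 4 untested members lie at the low end; ZNF415 has no mimic point because its counts there were 0.

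Features that the counts do not set were compared by description. The 13 members called higher had 7 to 26 fingers with a median of 15, and the 21 others 7 to 23 with a median of 13. The ETS core in the first 20 bases was present in 16 tested members, of which 7 were called, with a median log2 fold change of 0.32. Of 13 tested members whose promoter lacked it there 3 were called, with a median of 0.12, and of 5 without a promoter entry 3 were called. The difference between these sets was not tested, and they rest on the exact letters CCGGAAG. ZNF468 and ZNF761, called, and ZNF701, not called, have caggaag at that place and count among those that lacked it. The GC content of the longest transcript was 37.5% to 47.4% over the members, against a median of 48.4% over tested genes. With an offset for GC content and exonic length in the fit, 13 members were still called, none lower, with a median of 0.24.

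Of 18 genes listed as partners of KRAB zinc-finger proteins in repression 17 were tested, of which 5 were higher (29.4%) and 1 lower (5.88%). Over all tested genes 6.06% were higher and 5.77% lower. The median log2 fold change of the 17 was 0.07. Every mimic library was above every mock library in 8 of them and below in 4, against 13.5% and 13.6% of all tested genes. TRIM28, the corepressor itself, had 656, 607 and 603 CPM in mimic and 704, 647 and 669 CPM in mock libraries. The groups overlapped, and the log2 fold change of −0.11 ± 0.05 was not called (adjusted p = 0.0883). CHD3, a remodeller of the NuRD complex that TRIM28 binds, was higher at 333 ± 12.96 CPM in mimic against 242 ± 7.33 CPM in mock cells (adjusted p = 2.64e-12). HDAC1, a deacetylase of the same complex, was higher at 203 ± 1.76 against 168 ± 4.24 CPM (adjusted p = 2.35e-05). Their relatives CHD4 and HDAC2 were not called, at log2 fold changes of 0.064 and 0.09 (adjusted p = 0.409 and 0.201). In both, every mimic library was above every mock library, though for CHD4 only just (lowest mimic 466.1, highest mock 465.5 CPM). MPHOSPH8, a HUSH subunit that reads methylated histone H3, was lower at 45.4 ± 3.80 CPM in mimic against 63.9 ± 2.16 CPM in mock cells (adjusted p = 2.18e-07). TASOR, a core HUSH subunit, was instead higher at 121 ± 4.16 against 106 ± 6.17 CPM (adjusted p = 0.0122). MORC2, a HUSH effector, was also higher, at 90.7 ± 8.28 against 77.5 ± 4.69 CPM (adjusted p = 0.0123). PPHLN1, the periphilin subunit, was at 107 ± 4.23 CPM in mimic and 115 ± 0.65 CPM in mock cells. Every mimic library was below every mock library, and the log2 fold change of −0.11 was not called (adjusted p = 0.204). CBX5, the heterochromatin protein HP1α, was the fifth partner called higher (259 ± 13.6 against 218 ± 7.59 CPM, adjusted p = 8.60e-05). CBX1 and CBX3, its relatives in the list, were not called, at log2 fold changes of −0.035 and −0.097 (adjusted p = 0.749 and 0.194). SETDB1 was at 101 ± 4.19 and 95.6 ± 5.57 CPM and was not called (adjusted p = 0.510), and UHRF1 was not listed under its GENCODE 29 gene ID, which says nothing of its level.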

How the data were processed

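The authors deposited raw, whole-number counts by Ensembl gene ID in separate tables for the 6 libraries, made from single-end reads of rRNA-depleted RNA per the labels' protocols. Per the submitters' processing notes, STAR, edgeR and build hg19 were used, with no versions; neither the labels nor the notes name the counting program, the annotation or a strand setting. Genes missing from a library's table were set to 0. Groups came from the titles, and the labels call the transfections independent replicates. Genes with 30 or more summed counts (16885 genes, 99.84% of counts) were scaled by TMM and tested with edgeR 4.0.16 (R 4.3.3), as quasi-likelihood with robust dispersions and a group-only design. CPM are TMM-scaled, errors of CPM are SD over 3 libraries, and SE of log2 fold changes come from the test statistic. DESeq2 1.42.0 and mgcv 1.9.3 (for the GC offset) served alternatives. The 620 tested genes without a GC value got no such offset and stayed in the fit. The counts carry no molecular identifiers, and the errors given hold differences between cultures of a group as well as counting error.

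All 38 members were matched by symbol. Lengths, exons, 3′ UTRs, coding sequences and coordinates come from GENCODE release 29 (GRCh38), not the build used for counting. Fingers, the KRAB pattern (widened after a narrower one matched fewer members) and identities were read from translated GENCODE coding sequences, in place of the RefSeq proteins first planned. Members and lists were chosen with earlier results of these data known. Values per library are given for the 12 called members with the smallest p, the 3 highest per kilobase, the 3 with the largest uncalled change at 5 CPM or more, and 2 neighbours of ZNF616 on each side. Some of these fall under several parts of the rule.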

Additional observations from a re-analysis of the deposited data

How the results depend on the processing

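No member was lower under any alternative tried, and 5 of the 13 called members (ZNF616, ZNF160, ZNF28, ZNF528 and ZNF765) passed under all 15 refits. The number of members higher in mimic, 13, was 8 to 12 when 1 library was left out, 7 by DESeq2's Wald test, and 10 of 25 tested members that share at most 5% of their 100-base stretches with other genes. The called members that DESeq2 dropped were ZNF468, ZNF480, ZNF525, ZNF649, ZNF766 and ZNF836. The median log2 fold change, 0.252, was 0.230 to 0.294 when 1 library was left out and 0.292 over those 25 members. Over all genes, DESeq2 called 513 higher and 499 lower, against 1023 and 974 by edgeR, and leaving out 1 library gave 672 to 1054 higher and 591 to 979 lower. Same-numbered libraries were not paired by the data, with correlations of deviations of 0.0927, −0.0814 and −0.0470 over 12884 genes; a replicate block gave 12 members higher, without ZNF525, and 906 higher and 834 lower genes. With that block and the GC offset 13 members were higher. ZNF320 passed without mimic replicate 1 (adjusted p = 0.0446) and ZNF83 without mock replicate 1 (adjusted p = 0.0347). The cause of these shifts was not tested. Depth limits the low members: ZNF347, at 2.07 CPM on average, had a log2 fold change of 0.47 with an SE of 0.31, and was not called.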
